A study of Mus musculus with 34 samples.

Results

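The response of Balb/c CD4+ spleen cells to the phorbol ester PMA plus the calcium ionophore ionomycin was measured on the 6 arrays whose titles name the strain Balb/c, of 34 arrays in all. They comprise 3 arrays of stimulated cells (T1) and 3 arrays of unstimulated cells (T0), numbered 1, 2 and 4 at both times. The other 28 arrays, T1 and T0 of A/J, C57BL/6J, DBA/2J and 129X1/SvJ, served to test whether the response of Balb/c differed. All mice were female and 8 weeks old, and no strain carried an engineered allele per the labels. Spleen cells were enriched with AutoMACS CD4 beads, kept in serum-supplemented medium, and at T1 exposed for 4 h to 10 ng/ml PMA and 1 uM ionomycin. The T0 label is a basal, untreated state, and the labels leave unclear whether T0 cells spent the same 4 h in culture, so culture and stimulus cannot be told apart. The replicates are called biological, without saying whether each is 1 mouse or a pool, so p values measure the spread between these samples.

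PMA takes the place of diacylglycerol and switches on protein kinase C and the Ras-MAP kinase pathway, and ionomycin carries calcium into the cell. Together they bypass the T cell receptor. Calcium releases the transcription factor NFAT into the nucleus through calcineurin, while protein kinase C and MAP kinases build AP-1 (Fos and Jun proteins) and free NF-kappaB from its inhibitors. NFAT and AP-1 act jointly on many cytokine genes. Helper T cells of Balb/c mice are known for a lean towards type 2 cytokines, such as interleukin 4, in infection models.

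Values are log2 intensities as the authors deposited them, from 1.09 to 14.26 in the Balb/c arrays, with array medians of 5.30 to 5.34. Because such processing makes the arrays' distributions alike, every change below is relative to the other genes of the array, and a change in total RNA per cell would not show. In these bulk samples fewer cells of a type and less RNA per cell cannot be told apart. A group mean under 5.33, the median of all values and the limit of the filter, is not shown to lie above background, and changes that involve one are not exact in size. The 3 values of a group are given for replicates 1, 2 and 4 in that order. Calls rest on limma, with a threshold of 0.05 for the adjusted p.

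The array labelled Balb/c T1 replicate 2 went against its strain label. Over 299 genes that differ strongly between the strains at T1, its root mean square distance was 1.39 log2 from the other Balb/c T1 arrays, 0.83 from C57BL/6J, 1.14 from DBA/2J, 1.24 from 129X1/SvJ and 1.34 from A/J. By the same measure, with genes chosen anew without the array in question, each of the other 33 arrays was nearest to its own strain, at 0.22 to 0.52, and at least 0.67 from any other. The gene sets differed in size. For the other T1 arrays they held 112 to 139 genes, and the array labelled replicate 2 took part in choosing them. That array also entered the Balb/c mean for T1 replicates 1 and 4. Genes named in this paragraph and the next were chosen after their values were seen. Kcnma1, which encodes a calcium-activated potassium channel, read 10.83 on this array, against 3.26 and 2.87 on Balb/c T1 replicates 1 and 4. The DBA/2J T1 arrays read 6.99 to 7.68 for Kcnma1. Trim12a read 7.24, against 3.83 and 3.79 on the other 2 Balb/c T1 arrays, and C57BL/6J T1 arrays read 6.69 to 7.15. Gbp2b, an interferon-induced guanylate binding protein, read 4.86 against 8.47 and 9.15, and the small GTPase Rab34 read 5.31 against 7.72 and 7.68.

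Mid1 on the same array lay nearer to Balb/c. Mid1, a ubiquitin ligase gene, read 9.71, against 10.48 and 10.15 on Balb/c T1 replicates 1 and 4 and at most 9.08 on T1 arrays of the other strains. H2-Ea, a class II antigen presentation gene that C57BL/6J mice do not express, read 10.24, against 11.23 and 11.53, and 4.42 to 5.16 in C57BL/6J. This was 1.14 below the mean of the other 2 Balb/c T1 arrays and within the A/J range of 9.75 to 10.52. It was also close to the Balb/c T0 arrays, which read 10.40, 10.31 and 10.76 for H2-Ea. The T1 arrays of no single strain held all of these levels. It lay at least 1 log2 above the mean of the other 2 arrays in 141 genes and at least 1 below it in 374, whereas replicates 1 and 4 lay at least 1 apart in 70. Of the 17 genes at least 3 log2 away, several belong to red blood cells, such as Alas2, the first enzyme of haem synthesis, at 8.21 against 11.67 and 12.11. Alas2 also varied between strains at T1, at 5.46 to 6.6 in 129X1/SvJ, 8.99 to 11.67 in C57BL/6J and 11.46 to 11.91 in A/J. The part of red blood cells in the distances and counts above was not tested. The T0 array of the same number was nearest to Balb/c, at a distance of 0.40. What the array holds was not tested. Counts and list medians below are therefore also given without it, as are single values that it moved by over 1.5 times or whose call it decided. Of 208 named genes called between T1 and T0 with all arrays, 203 were also called without it, the exceptions being Foxp3, Themis, Lat, Gimap5 and Pfkl, and none of the 208 changed sign.

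**Figure D1:**
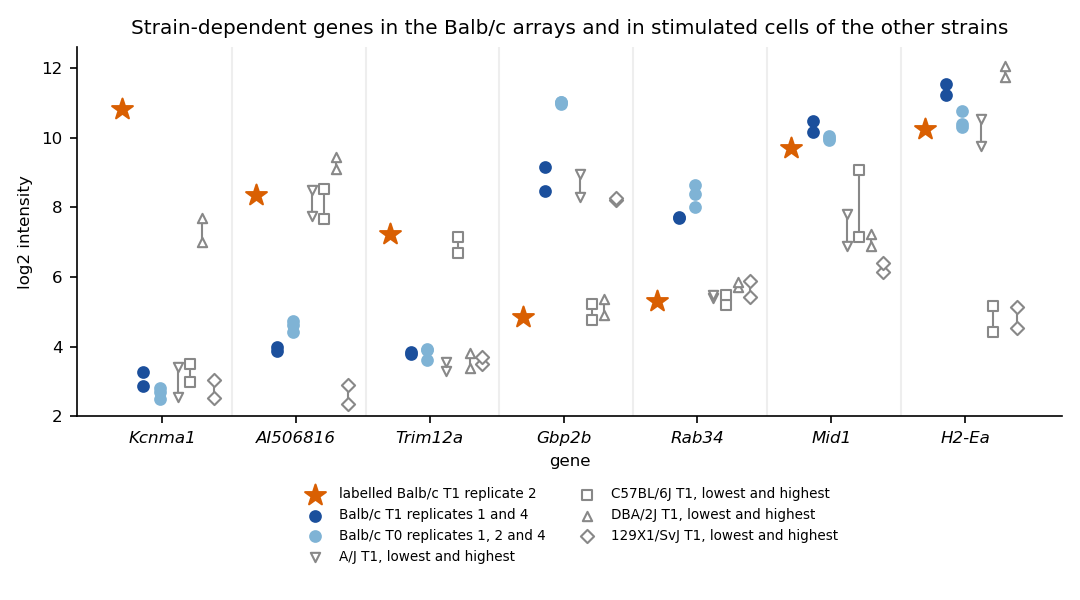
Log2 intensity of 7 strain-dependent genes (vertical axis) on the array labelled Balb/c T1 replicate 2 (star), the other Balb/c T1 arrays (dark circles), the Balb/c T0 arrays (light circles), and the lowest and highest T1 array of each other strain (open symbols). The star lies far from the Balb/c circles for Kcnma1, AI506816, Trim12a, Gbp2b and Rab34, and nearest to them for Mid1. For H2-Ea it lies 1.14 below the mean of the dark circles and close to the lowest light circle.

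Of the 11413 genes kept, 6238 (54.7%) differed between T1 and T0 in Balb/c. At T1 2351 were higher (20.6%) and 3887 lower (34.1%), 713 and 1017 of them by at least 1 log2 (6.25% and 8.91%). Without the array labelled replicate 2, 5536 genes were called (48.5%), 2088 higher (18.3%) and 3448 lower (30.2%), 659 and 843 of them by at least 1 log2 (5.77% and 7.39%), and 5213 were called with and without it, none with opposite signs. The median change over all genes was -0.07, or -0.06 without that array. Quantile normalization on top of the deposited values moved this median to 0.02 and the split to 2972 higher and 3386 lower. The 3 T1 values lay all above or all below the 3 T0 values in 57.8% of genes (23.3% above, 34.5% below). These shares are the background against which the counts below stand. Most of the response was shared between strains: 5941 of the 6238 genes (95.2%) changed with the same sign in all 4 other strains, without a test in each.

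Interleukin 3, a growth factor of mast cells and basophils, led the 15 largest rises. Il3 read 9.09, 9.81 and 8.87 at T1, against 3.24, 3.34 and 3.03 at T0, a change of 6.05 (SE 0.24, adjusted p = 2.82e-18), or 5.78 without the array labelled replicate 2. Its groups lay far apart, and the T0 values were under the filter limit. Il2, the growth factor of T cells, read 10.87, 11.53 and 10.45, against 5.36, 5.01 and 5.27 at T0 (change 5.73, SE 0.22, or 5.44 without that array). Il10, an anti-inflammatory cytokine, read 10.21, 10.50 and 9.94, against 4.92, 4.67 and 4.73 (change 5.44, SE 0.25). Ifng, the interferon that activates macrophages, read 11.21, 11.96 and 11.17, against 6.34, 6.55 and 6.95, so that it alone of these 4 had T0 values over the limit on every array (change 4.84, SE 0.21). In Il3, Il2, Il10 and Ifng the array labelled replicate 2 was the highest of the T1 arrays.

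The promoters of some of these genes are printed with any letters that NFAT and AP-1 are known to recognise marked. They run from 250 bases before to 50 after the start in RefSeq on GRCm38.p6, 5′ to 3′ on the gene's strand. Capitals mark GGAAA, the core of NFAT sites (TTTCC when it lies on the other strand), and TGANTCA, the AP-1 motif. Il3 is at chr11:54267230-54267529 (minus strand), Il2 at chr3:37125905-37126204 (minus strand), Ifng at chr10:118440796-118441095 (plus strand) and Lif at chr11:4257318-4257617 (plus strand). Il3, Il2 and Ifng are the largest rises in the promoter table, and Lif is the next one whose promoter holds an AP-1 match.
Il3: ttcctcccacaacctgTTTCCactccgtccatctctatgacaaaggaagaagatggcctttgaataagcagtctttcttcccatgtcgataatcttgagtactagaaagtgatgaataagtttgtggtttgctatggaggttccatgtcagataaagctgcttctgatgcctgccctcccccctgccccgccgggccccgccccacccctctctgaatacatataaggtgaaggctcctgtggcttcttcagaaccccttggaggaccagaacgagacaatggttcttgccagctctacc
Il2: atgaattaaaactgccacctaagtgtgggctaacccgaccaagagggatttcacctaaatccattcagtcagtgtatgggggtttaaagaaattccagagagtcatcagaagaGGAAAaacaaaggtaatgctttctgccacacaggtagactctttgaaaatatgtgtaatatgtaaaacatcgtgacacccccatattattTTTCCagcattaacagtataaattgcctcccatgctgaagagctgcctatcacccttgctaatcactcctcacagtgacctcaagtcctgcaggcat
Ifng: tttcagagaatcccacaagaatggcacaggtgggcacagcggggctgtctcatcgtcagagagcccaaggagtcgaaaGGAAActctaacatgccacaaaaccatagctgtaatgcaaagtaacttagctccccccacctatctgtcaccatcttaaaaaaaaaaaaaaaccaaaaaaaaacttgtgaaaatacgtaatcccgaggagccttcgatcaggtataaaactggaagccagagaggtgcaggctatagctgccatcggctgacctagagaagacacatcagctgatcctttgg
Lif: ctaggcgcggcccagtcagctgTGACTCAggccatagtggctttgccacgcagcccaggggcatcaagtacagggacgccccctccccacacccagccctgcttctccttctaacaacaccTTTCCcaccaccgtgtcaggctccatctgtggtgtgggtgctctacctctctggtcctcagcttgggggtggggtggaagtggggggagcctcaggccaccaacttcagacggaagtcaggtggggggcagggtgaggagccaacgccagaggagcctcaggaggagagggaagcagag
The Il2 promoter holds 2 NFAT cores and the Il3, Ifng and Lif promoters 1 each. Of these promoters only that of Lif, chosen for it, holds an AP-1 match, and those of Il3, Il2 and Ifng hold none. Both strands were searched. GGAAA occurred in 9 of the 13 largest rises that the table holds and in 4 of 11 largest falls, against 61.3% of all 27025 promoters of this length. TGANTCA occurred in 4 of 13 rises and 1 of 11 falls, against 7.9% of all promoters. Neither TGACGTCA, the cAMP response element (1.9% of promoters), nor a form of the NF-kappaB motif (1.6%) occurred in either set. A match describes letters in this window and is not a site shown to be bound.

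The other large rises included interleukin 17 cytokines, which recruit neutrophils, chemokines and regulators of signalling. Il17f read 9.03, 10.04 and 8.55 at T1, against 4.63, 4.78 and 4.71 at T0 (change 4.50, or 4.08 without the array labelled replicate 2), and Il17a read 8.76, 10.29 and 8.86, against 5.55, 5.15 and 5.48 (3.91, or 3.41). Il21, which helps B cells, read 8.48, 9.98 and 8.12, against 4.00, 4.65 and 5.31 (4.21, or 3.65). In these 3 genes the array labelled replicate 2 exceeded the other T1 arrays by more than 1 log2, and no T1 value overlapped T0. The chemokine Ccl4 read 11.25, 10.95 and 11.25, against 6.66, 6.86 and 7.11 (4.28, SE 0.17), and its neighbour in function Ccl3 read 12.82, 13.09 and 12.92, against 8.51, 8.54 and 9.08 (4.23). Lif, a cytokine of the interleukin 6 family, rose by 4.19, Spry1, which restrains the MAP kinase pathway, by 4.05, and Gzmb, a granule protease, by 4.05. Sema7a, a membrane-anchored semaphorin, rose by 3.93, Fosb, an AP-1 subunit, by 3.84 and Mmp13, a collagenase, by 3.77. Without the array labelled replicate 2 these 15 changes lay between 3.41 and 5.78.

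**Figure D2:**
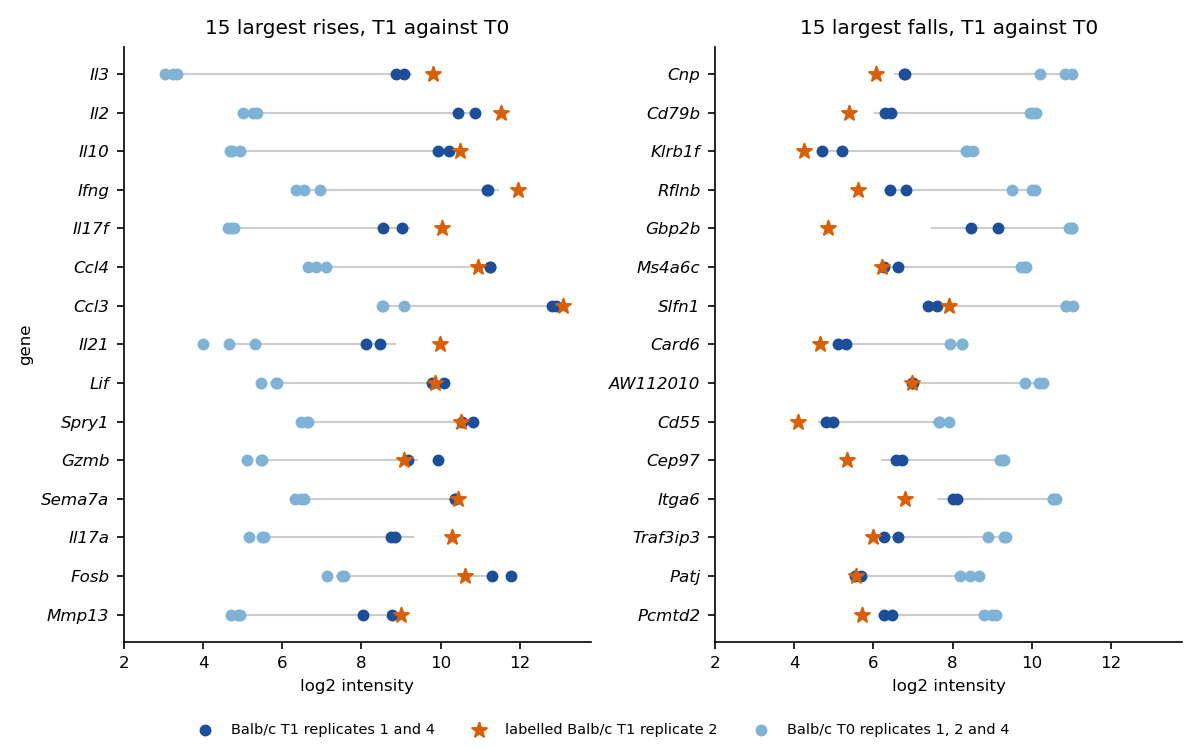
Log2 intensity (horizontal axis) of the 15 largest rises (left) and 15 largest falls (right) in Balb/c, with T1 replicates 1 and 4 as dark circles, the array labelled T1 replicate 2 as a star and T0 as light circles; grey lines join the group means. No T1 point overlaps a T0 point in these genes, which the rule for choosing them required.

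Early transcription factors, which PMA and calcium induce through MAP kinases and calcineurin, rose almost throughout. Of the 32 listed genes, 30 rose, none fell and 2 (Jund and Crem) were not called, with a median change of 1.85 (28 rose without the array labelled replicate 2, median 1.97). Myc, which drives cell growth, read 12.34, 12.21 and 12.09 at T1, against 9.21, 9.14 and 9.02 at T0 (change 3.09, SE 0.14). Egr2, a zinc finger factor induced through calcium, read 10.92, 10.78 and 10.64, against 7.57, 7.42 and 7.79 (3.19). Both genes were tight within each group and far apart between them. Fos, the partner of Jun proteins in AP-1, read 11.11, 10.10 and 10.99, against 7.38, 7.08 and 7.34 (3.47, or 3.78 without the array labelled replicate 2), and Fosb read 11.77, 10.62 and 11.31, against 7.50, 7.12 and 7.56. Here that array was the lowest of the T1 arrays. Maff, a small Maf factor, rose by 2.91, Batf, which pairs with Jun and Irf4 on cytokine genes, by 2.62, Irf4 by 2.32 and Tbx21, the factor of type 1 helper cells, by 3.07.

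Of 29 cytokine genes, 22 rose, 2 fell and 5 were not called, with a median change of 1.96 (the same counts, and 1.85, without the array labelled replicate 2). Tnf read 10.46, 10.40 and 10.23 at T1, against 7.70, 7.25 and 7.77 at T0 (change 2.79, SE 0.16), without overlap. The cytokines that fell were Ltb, a chain of membrane lymphotoxin, and Il16, a chemoattractant made from a precursor. Ltb read 8.34, 6.97 and 8.08, against 9.82, 9.88 and 9.22 (-1.84, or -1.43 without that array), and Il16 read 5.21, 5.01 and 4.91, against 6.44, 6.29 and 6.30 (-1.29). Osm, Csf1, Il27, Il9 and Ebi3 were not called, with changes from -0.07 to 0.42.

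Among 19 genes of type 2 helper cells, 9 rose, 5 fell and 5 were not called (median 0.42, or 0.35 without the array labelled replicate 2). Their cytokines differed in level before stimulation. Il13, which acts on epithelium and mucus, read 9.66, 9.90 and 9.72 at T1, against 6.05, 6.14 and 6.31 at T0 (change 3.60, SE 0.21). Il5, the eosinophil growth factor, read 7.70, 9.10 and 6.52, against 4.51, 4.00 and 4.14 (3.56, SE 0.50, or 2.89 without the array labelled replicate 2), and its T1 values spread over more than 2 log2. Il4, the defining type 2 cytokine, was already at 10.29, 10.05 and 10.54 at T0, against which T1 read 11.07, 11.91 and 11.30 (1.13, SE 0.28, adjusted p = 0.000959). Without the array labelled replicate 2 the change of Il4 was 0.89 (adjusted p = 0.0145), and it did not pass the test without both Balb/c arrays of number 2 (0.77). Ccr8, a chemokine receptor of type 2 and regulatory cells, rose by 3.57, Irf4 by 2.32 and Gfi1, a repressor that favours type 2 growth, by 2.09. Gata3, the factor that specifies type 2 cells, read 9.31, 9.50 and 9.16, against 9.58, 9.59 and 9.44 (-0.22, adjusted p = 0.137).

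The type 2 genes that fell included the receptor side of the pathway. Il4ra, the chain through which interleukins 4 and 13 signal, read 10.46, 10.16 and 10.23 at T1, against 11.85, 11.92 and 11.65 at T0 (change -1.52, SE 0.18). Stat6, the factor that this receptor activates, fell by 0.61 and Ecm1, a secreted matrix protein, by 1.17. Rad50 and Kif3a, genes that flank the type 2 cytokine cluster and serve DNA repair and ciliary transport, fell by 1.35 and 1.20. No T1 value of these 5 genes overlapped T0.

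Of 17 genes of type 1 helper cells, 11 rose, 4 fell and 2 were not called (median 0.86; 10 rose and the median was 0.70 without the array labelled replicate 2). Tbx21 read 9.31, 8.89 and 9.33 at T1, against 6.04, 6.20 and 6.08 at T0 (change 3.07, SE 0.15). Havcr2, an inhibitory receptor of type 1 cells known as Tim-3, rose by 1.96, and Cxcr3, their homing receptor, by 0.86, or by 0.52 without the array labelled replicate 2. Il18r1, a chain of the interleukin 18 receptor, fell by 1.50, Il12rb2, a chain of the interleukin 12 receptor, by 1.22, Stat4, which interleukin 12 activates, by 0.60, and Eomes, a relative of Tbx21, by 1.70.

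Genes of type 17 and follicular helper cells numbered 16, of which 8 rose, 2 fell and 6 were not called (median 0.39; 8 and 4 without the array labelled replicate 2). Besides Il17a, Il17f and Il21, Ahr, a ligand-activated factor of type 17 cells, rose by 2.47 and Batf by 2.62. Bcl6, the factor that specifies follicular helper cells, fell by 1.04 and Sh2d1a, an adaptor they need to help B cells, by 2.21. Sh2d1a read 6.01, 6.79 and 5.75 at T1, against 8.56, 8.48 and 8.16 at T0.

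In 17 genes of regulatory T cells, 5 rose, 6 fell and 6 were not called (median -0.11; 3 fell without the array labelled replicate 2). The genes that rose are also induced in other activated T cells. Ctla4, an inhibitory receptor, read 11.46, 11.81 and 11.32 at T1, against 9.32, 9.25 and 9.45 at T0 (change 2.19), and Il2ra, the high-affinity interleukin 2 receptor chain, read 10.63, 10.74 and 10.52, against 8.72, 8.66 and 8.70 (1.94, SE 0.18). Neither overlapped T0. Foxp3, the factor that specifies regulatory T cells, read 7.94, 7.42 and 7.54, against 8.36, 8.34 and 7.94 (-0.58, adjusted p = 0.0274). The call of Foxp3 was lost without T1 replicate 2 (-0.48, adjusted p = 0.114), T1 replicate 4 (-0.53), T0 replicate 1 (-0.51) or T0 replicate 2 (-0.52). Ikzf4, a partner of Foxp3, fell by 1.04.

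Chemokine genes rose or did not pass the test. Of 15, 11 rose and 4 were not called (Cxcl9, Cxcl10, Cxcl11 and Cxcl16), with a median of 1.22 (10 and 1.42 without the array labelled replicate 2). Xcl1, which attracts cross-presenting dendritic cells, read 9.55, 9.76 and 9.78 at T1, against 6.74, 6.47 and 6.82 at T0 (change 3.02). Ccl1, the ligand of Ccr8, read 7.97, 8.79 and 7.14, against 4.65, 4.80 and 5.02 (3.14), Ccl22, a ligand of Ccr4, rose by 2.39 and Ccl20, a ligand of Ccr6, by 2.04. The array labelled replicate 2 was the highest T1 array for Ccl1, Ccl20 and Ccl22.

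Of 18 receptors for homing and egress, 4 rose, 8 fell and 6 were not called (median -0.44; 4 and 10, median -0.57, without the array labelled replicate 2). S1pr1, the sphingosine phosphate receptor that lets lymphocytes leave lymphoid organs, read 8.02, 6.97 and 8.09 at T1, against 10.41, 10.56 and 10.40 at T0 (change -2.76, or -2.40 without that array). Its relative S1pr4 fell by 2.50, Itga4, an integrin chain, by 1.95 and Selplg, the carrier of selectin ligands, by 1.74. Gpr183, an oxysterol receptor that positions activated cells, read 11.21, 11.05 and 11.26, against 9.85, 9.77 and 9.61 (1.43). The other receptors that rose were Ccr8, Cxcr3 and Ccr4 (0.50). The naive cell homing receptor Ccr7 was not called, with a mean of 10.70 at T1 and 10.81 at T0.

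Of 35 activation receptors and costimulators, 20 rose, 6 fell and 9 were not called, with a median of 0.86 (21 and 7, median 0.84, without the array labelled replicate 2). Cd69, an early activation marker, read 12.39, 12.59 and 12.40 at T1, against 9.80, 9.76 and 10.39 at T0 (change 2.47, SE 0.19). Cd200, an inhibitory ligand, read 8.74, 9.11 and 8.58, against 5.97, 5.96 and 6.14 (2.78, SE 0.11). Slamf7 rose by 3.01, Slamf1 by 2.89 and Btla, an inhibitory receptor, by 2.61. Several receptors for cytokines of resting cells stood among the 6 that fell. Il7r, the survival receptor of naive cells, read 9.12, 8.82 and 9.37, against 11.53, 11.74 and 11.52 (-2.49), and Il6ra fell by 0.99. The others were Il4ra, Il18r1, Slamf6 (-1.51) and Nt5e, the ectoenzyme that makes adenosine (-0.90, or -1.24 without the array labelled replicate 2). Cd28 was not called, with means of 10.33 at T1 and 10.14 at T0.

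Feedback regulators of signalling rose in most cases. Of 30, 21 rose, 5 fell and 4 were not called (median 1.02; 20 and 5, median 1.03, without the array labelled replicate 2). Spry1 read 10.82, 10.53 and 10.55 at T1, against 6.66, 6.62 and 6.48 at T0 (change 4.05, SE 0.17). The MAP kinase phosphatases Dusp4, Dusp6 and Dusp2 rose by 2.83, 2.61 and 1.73, Rgs16, which ends G protein signals, by 2.67, and Zfp36l1, which destabilises cytokine mRNAs, by 1.66. Dusp10, a phosphatase of stress kinases, read 9.10, 8.51 and 8.65, against 10.50, 10.43 and 10.38 (-1.68). Brakes of T cell receptor signalling also fell, namely the ubiquitin ligases Itch (-1.19) and Cblb (-0.60) and the diacylglycerol kinase Dgka (-1.10). Cblb overlapped between times, with the array labelled replicate 2 at 10.55 against 9.99 and 9.63 on the other T1 arrays and 10.51 to 10.75 at T0, and its change was -0.39 without T1 replicate 4. The fifth was Socs1, an inhibitor of cytokine receptors (-0.69).

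NF-kappaB genes split. Of 23, 9 rose, 10 fell and 4 were not called (median 0; 8 and 10 without the array labelled replicate 2). Genes for inhibitors of the pathway and their relatives were among those that rose. Nfkbid read 11.81, 11.71 and 11.69 at T1, against 8.52, 8.08 and 8.59 at T0 (change 3.34, SE 0.14), Nfkbiz rose by 2.01, Tnfaip3 by 1.87, Nfkbia by 1.51 and Nfkbib by 1.24. The subunit gene Rel read 11.98, 12.14 and 12.04, against 10.41, 10.21 and 10.86 (1.56), while Rela was not called, with means of 8.66 at T1 and at T0. Cyld, a deubiquitinase that restrains the pathway, read 7.68, 7.75 and 7.91, against 9.67, 9.63 and 9.70 (-1.88).

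**Figure D3:**
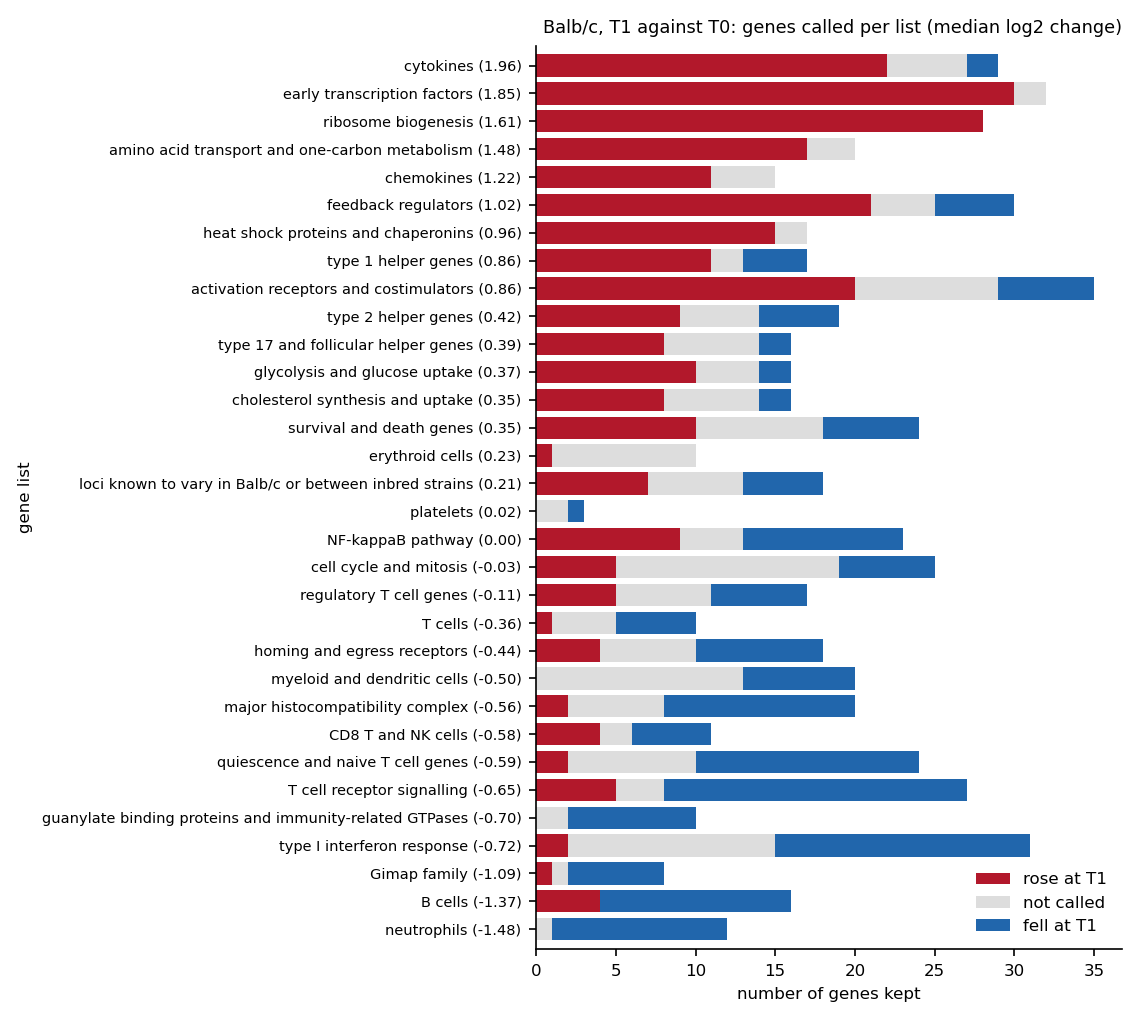
Number of kept genes (horizontal axis) of each of 32 lists (vertical axis) that rose (red), fell (blue) or were not called (grey) at T1 against T0 in Balb/c, with the list's median log2 change in parentheses. Cytokines, early transcription factors and ribosome biogenesis lead at the top, with medians of 1.96, 1.85 and 1.61, and B cell and neutrophil markers stand at the bottom, with medians of -1.37 and -1.48.

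Genes for cell growth rose together. All 28 genes of ribosome biogenesis rose, with a median of 1.61 (all 28, and 1.51, without the array labelled replicate 2), and 24 of them rose by at least 1 log2. Rrp1b, a nucleolar factor, read 8.70, 8.96 and 8.70 at T1, against 6.00, 6.09 and 6.04 at T0 (change 2.74, SE 0.14). Gnl3, the nucleolar GTPase nucleostemin, read 10.71, 11.16 and 10.72, against 8.36, 8.34 and 8.57 (2.44). The array labelled replicate 2 was the highest T1 array for both. Nolc1, a nucleolar chaperone, rose by 1.96, Tsr1, which matures the small subunit, by 2.06 and Rrp12, which exports subunits, by 2.12.

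Of 20 genes for amino acid transport and one-carbon metabolism, 17 rose and 3 were not called (Psph, Slc7a11 and Slc38a2), with a median of 1.48 (18 and 1.46 without the array labelled replicate 2). Slc7a1, the transporter of arginine and lysine, read 10.36, 10.35 and 10.14 at T1, against 8.33, 8.27 and 8.36 at T0 (change 1.97, SE 0.11). Shmt1, which passes carbon units from serine to folate, rose by 2.61, Psat1, of serine synthesis, by 2.27 and Mthfd2, the mitochondrial folate enzyme, by 1.85. The glutamine transporters Slc1a5 and Slc38a1 rose by 1.39 and 1.57. Of 17 heat shock proteins and chaperonins, 15 rose and 2 (Dnaja1 and Hspa4) were not called, with a median of 0.96 (15 and 0.81 without that array). The mitochondrial chaperonin Hspd1 rose by 1.44 and Hspa5, the chaperone of the endoplasmic reticulum, by 1.25.

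Cholesterol synthesis rose in part, with 8 of 16 genes higher, 2 lower and 6 not called (median 0.35; 9 and 2 without the array labelled replicate 2). Idi1, an isomerase of the pathway, read 9.72, 9.53 and 9.82 at T1, against 7.52, 7.21 and 7.48 at T0 (change 2.29), Sqle rose by 1.95, Cyp51 by 1.89 and Hmgcs1 by 1.55. The cholesterol exporters Abca1 and Abcg1 were the genes that fell, by 1.70 and 0.99. Abcg1 fell by 0.68 without that array.

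Of 16 genes of glycolysis and glucose uptake, 10 rose, 2 fell and 4 were not called (median 0.37; 8 and 1 without the array labelled replicate 2). Hk2, the inducible hexokinase, read 8.71, 9.39 and 8.74 at T1, against 5.95, 5.96 and 5.97 at T0 (change 2.98), while Hk1 was not called, with means of 12.55 and 12.48. Pgam1 rose by 1.31, Pfkp by 0.85, the glucose transporter Slc2a1 by 0.83 and Hif1a, a factor that drives glycolytic genes, by 0.85. Pfkl changed by -0.32 and Slc16a3, a lactate exporter, by -0.59. The call of Pfkl was lost without T1 replicate 2 (-0.25) or without T0 replicate 1 or 2 (-0.28 each), and that of Slc16a3 without T1 replicate 1 (-0.49) or T0 replicate 4 (-0.46).

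Of 25 cell cycle genes, 5 rose, 6 fell and 14 were not called (median -0.03; 4 and 5, median 0.19, without the array labelled replicate 2). Of the 5 genes that rose, several act in the first gap phase. Cdk6 read 9.90, 9.70 and 10.16 at T1, against 7.41, 7.53 and 7.91 at T0 (change 2.30), its cyclin partner Ccnd2 rose by 1.50 and Cdk4 by 0.73. Ccnd3, another cyclin of that phase, fell by 1.26 and Cdk2 by 1.04. Mki67, a marker of cycling cells, was not called, with means of 8.15 at T1 and 7.99 at T0.

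Of 24 survival and death genes, 10 rose, 6 fell and 8 were not called (median 0.35; 10 and 5, median 0.10, without the array labelled replicate 2). Gadd45b, a stress-induced kinase regulator, read 12.15, 11.50 and 11.81 at T1, against 9.50, 9.33 and 9.44 at T0 (change 2.40). The kinases Pim3 and Pim1 rose by 1.43 and 0.81, while their relative Pim2 fell by 1.14. Cflar, an inhibitor of death receptor signalling, rose by 1.31. The survival genes Mcl1 and Bcl2 fell by 0.86 and 1.49.

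The largest falls named genes of several cell types. Cnp, a phosphodiesterase best known from myelin, read 6.79, 6.07 and 6.77 at T1, against 11.01, 10.84 and 10.21 at T0 (change -4.14, SE 0.28, or -3.90 without the array labelled replicate 2). Cd79b, a signalling chain of the B cell receptor, read 6.29, 5.38 and 6.44, against 10.04, 9.97 and 10.12 (-4.01, or -3.68). Klrb1f, of the Nkrp1 family of lectin-like receptors, read 4.69, 4.24 and 5.20, against 8.33, 8.37 and 8.52 (-3.69, or -3.46). In all 3 genes that array was the lowest T1 array. Gbp2b read 8.47, 4.86 and 9.15, against 11.02, 11.02 and 10.95, and its change of -3.51 became -2.19 without the array labelled replicate 2. Rflnb, an actin-binding protein, fell by 3.58, Ms4a6c, a membrane protein of the Ms4a family, by 3.43. Slfn1, a Schlafen protein linked to T cell quiescence, fell by 3.29. Card6, AW112010, Cd55, Cep97, Itga6, Traf3ip3, Patj and Pcmtd2 fell by 2.81 to 3.13, and without that array by 2.49 to 3.13.

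Genes of quiescence and naive T cells fell in 14 of 24 cases, 2 rose and 8 were not called (median -0.59; 13 and 2, median -0.46, without the array labelled replicate 2). Klf3, a repressor of the Krüppel family, read 7.38, 7.03 and 7.44 at T1, against 9.82, 9.94 and 9.88 at T0 (change -2.60, SE 0.13). Slfn1 read 7.61, 7.92 and 7.37, against 10.86, 11.05 and 10.86 (-3.29). Both separated the times widely. Cdkn1b, an inhibitor of cyclin-dependent kinases, fell by 1.75, Ets1, a factor of resting lymphocytes, by 1.84 and Cnr2, a cannabinoid receptor, by 2.61. Klf4 (1.04) and Klf6 (0.36) rose. Foxo1, which keeps T cells naive, was not called, with means of 9.31 at T1 and 9.28 at T0.

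T cell receptor signalling genes, whose products PMA and ionomycin bypass, fell in 19 of 27 cases, 5 rose and 3 were not called (median -0.65; 18 and 4, median -0.55, without the array labelled replicate 2). The adaptor Grap2 read 8.73, 8.18 and 8.45 at T1, against 10.36, 10.31 and 10.11 at T0 (change -1.81), and Cd3g, a chain of the receptor complex, read 9.77, 9.71 and 10.04, against 11.26, 11.29 and 11.21 (-1.42). Txk, a kinase of the Tec family, fell by 1.33, Csk, which restrains Src kinases, by 1.12 and Ubash3a, a phosphatase-like brake, by 1.74. Zap70, the kinase that docks on the receptor, read 9.34, 9.86 and 9.16, against 8.26, 8.34 and 8.31 (1.15), the calcium channel Orai1 rose by 0.88 and the kinase Fyn by 0.49. The adaptors Lat (0.33) and Themis (0.43) also passed the test, but not without T1 replicate 2 (0.31 and 0.13) or without T0 replicate 4 (0.29 and 0.31). Lat also failed it without T1 replicate 1 (0.29) and Themis without T0 replicate 1 (0.46). Cd4 itself was not called, at 8.86, 9.07 and 8.92 at T1, against 9.21, 9.22 and 9.24 at T0 (-0.28, adjusted p = 0.118), although no T1 value overlapped T0.

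The Gimap genes encode GTPases of the immunity-associated family that lymphocytes need to survive. Of 8, 6 fell, 1 rose and 1 (Gimap6) was not called, with a median of -1.09 (7 fell and none rose, median -1.15, without the array labelled replicate 2). Gimap3 read 8.57, 8.58 and 8.78 at T1, against 10.15, 10.17 and 10.02 at T0 (change -1.47), Gimap7 fell by 1.69 and Gimap4 by 1.14. Gimap5 gave 0.34 and was not called without T1 replicate 2 (0.31), T1 replicate 4 (0.26), T0 replicate 2 (0.36) or T0 replicate 4 (0.26).

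Interferon-induced genes fell more often than they rose. Of 31 genes in the list for type I interferon, 16 fell, 2 rose and 13 were not called (median -0.72; 14 and 2, median -0.69, without the array labelled replicate 2). Samhd1, which depletes nucleotides, read 9.56, 9.89 and 9.75 at T1, against 11.15, 11.29 and 11.35 at T0 (change -1.53). Stat2 and Irf9, the partners that carry the interferon signal, fell by 1.93 and 1.06, and the RNA sensor Ddx58 by 1.66. Another RNA sensor, Ifih1, rose by 1.12 and Oasl1 by 0.80. Irf1 was not called, with means of 11.00 and 11.21.

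Of 10 guanylate binding proteins and immunity-related GTPases, which interferon gamma induces, 8 fell and 2 (Gbp8 and Gbp9) were not called, with a median of -0.70 (8 fell, median -0.76, without the array labelled replicate 2). Gbp7 read 8.60, 8.02 and 9.04 at T1, against 10.65, 10.73 and 10.56 at T0 (change -2.09). Gbp11 read 6.90, 8.52 and 6.64, against 8.79, 8.86 and 9.01 (-1.53, or -2.11 without that array), and Iigp1 fell by 1.77. Gbp3 fell by 0.65 and Gbp5 by 0.75. Gbp4 gave -0.55, a call lost without T1 replicate 1 (-0.44), T1 replicate 4 (-0.39), T0 replicate 2 (-0.47) or T0 replicate 4 (-0.55, adjusted p = 0.0628).

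Among 20 genes of the major histocompatibility complex and its antigen processing, 12 fell, 2 rose and 6 were not called (median -0.56; 14 and 3, median -0.62, without the array labelled replicate 2). Tapbp, which loads class I molecules, fell by 1.25, the peptide transporter chain Tap1 by 0.92, the immunoproteasome subunit Psmb10 by 1.03 and Ciita, the master regulator of class II genes, by 0.99. The class II genes H2-Eb1 (0.63) and H2-Aa (0.69) rose. Their groups overlapped, since the array labelled replicate 2 read 9.83 and 9.91 while the highest T0 values were 9.95 and 9.97. Without that array the changes were 0.97 and 0.89. Both calls were lost without T1 replicate 1 (0.50 and 0.69) or T1 replicate 4 (0.43 and 0.49), and that of H2-Aa without T0 replicate 1 (0.67) or 2 (0.54).

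Of 18 loci known to vary in Balb/c or between inbred strains, 7 rose, 5 fell and 6 were not called (median 0.21, or 0.30 without the array labelled replicate 2). Ifi202b, an interferon-induced DNA-binding protein whose level differs between strains, read 6.41, 8.21 and 7.61 at T1, against 4.30, 3.71 and 4.95 at T0 (change 3.09, or 2.69 without that array). Nnt, a mitochondrial transhydrogenase that C57BL/6J mice lack in working form, fell by 0.86. Mid1 gave 0.12 (adjusted p = 0.765 in limma), 0.32 without the array labelled replicate 2, and -0.06 without T1 replicate 1.

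Markers of other spleen cells were read in the same way, since beads can leave some behind. T cell markers averaged 9.17, 9.13 and 9.05 at T1, against 9.53, 9.61 and 9.48 at T0, and 1 of 10 rose, 5 fell and 4 were not called. B cell markers averaged 6.70, 6.36 and 6.81, against 7.66, 7.63 and 7.68. Of 16, 12 fell and 4 rose (median -1.37, or -1.21 without the array labelled replicate 2). Fcrla fell by 2.11, Spib, a transcription factor, by 2.07 and Cd22 by 1.55, whereas the kinase gene Blk rose by 1.07, Cd72 by 1.00, Cr2 by 0.87 and Ebf1 by 0.63. Cr2 gave 1.34 without the array labelled replicate 2, and its call was lost without T1 replicate 1 (0.69), T1 replicate 4 (0.57), T0 replicate 2 (0.93) or T0 replicate 4 (0.68), and that of Ebf1 without T1 replicate 4 (0.52) or T0 replicate 1 (0.57). The part that B cells had in the falls of Cd79b and Ciita and in the rises of H2-Aa and H2-Eb1 was not tested.

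Neutrophil markers averaged 4.97, 4.60 and 5.55 at T1, against 6.29, 5.71 and 7.15 at T0. Of 12, 11 fell, none rose and Mpo was not called (10 fell without the array labelled replicate 2; median -1.48, or -1.17 without it). S100a9, a calcium-binding protein abundant in neutrophils, read 5.21, 5.14 and 5.85, against 7.59, 6.78 and 8.38 (change -2.18), and S100a8 fell by 2.05. Myeloid and dendritic cell markers averaged 6.33, 5.95 and 6.83, against 6.91, 6.81 and 7.41. Of 20, 7 fell and 13 were not called (5 fell without the array labelled replicate 2), with Siglech, of plasmacytoid dendritic cells, at -2.01. Ms4a6c, a large fall, is in this list.

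Of 11 genes of CD8 T and NK cells, 4 rose, 5 fell and 2 were not called (median -0.58, or -0.15 without the array labelled replicate 2). Cd8a, the defining chain, read 5.76, 5.97 and 6.06 at T1, against 6.86, 7.07 and 6.70 at T0 (change -0.94). Prf1, the pore protein of killer cells, read 7.54, 6.37 and 8.36, against 6.06, 5.66 and 6.07 (1.49, or 2.02 without that array), and Gzmb, Nkg7 (1.34) and Klrc1 (1.00) also rose. Erythroid markers averaged 8.78, 6.59 and 9.19, against 8.12, 6.73 and 8.90, so that both arrays of number 2 were low. Alone among 10, Tfrc, the transferrin receptor, which activated T cells also use, rose (2.17), and 3 rose without the array labelled replicate 2. Of the 3 platelet markers kept, Itgb3 fell by 1.72 and Treml1 and Itga2b were not called. The part of these cells in the changes above was not tested.

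The response of Balb/c was then set against the mean response of the other 4 strains by an interaction contrast. Of 11413 genes, 60 (0.526%) differed, 25 with a more positive (0.219%) and 35 with a more negative (0.307%) change in Balb/c. Without the array labelled replicate 2 the count was 129 (1.13%), 74 more positive (0.648%) and 55 more negative (0.482%), and 45 genes were called both ways, 17 positive and 28 negative. The counts without T0 replicate 1 and T0 replicate 2 were 36 and 35. In 38 of the 45 genes Balb/c lay outside the range of all 4 strain responses with and without that array. These genes were chosen for differing from the mean of the same responses, so this count is no separate support. The share over all genes was not counted. With all arrays, none of the 32 lists had more than 3 members called. The list of guanylate binding proteins and immunity-related GTPases had 3 of 10 more negative. Without the array labelled replicate 2, that list had 6 of 10 more negative and activation receptors and costimulators 5 of 35. The 18 loci known to vary then had 1 more positive and 3 more negative.

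**Figure D4:**
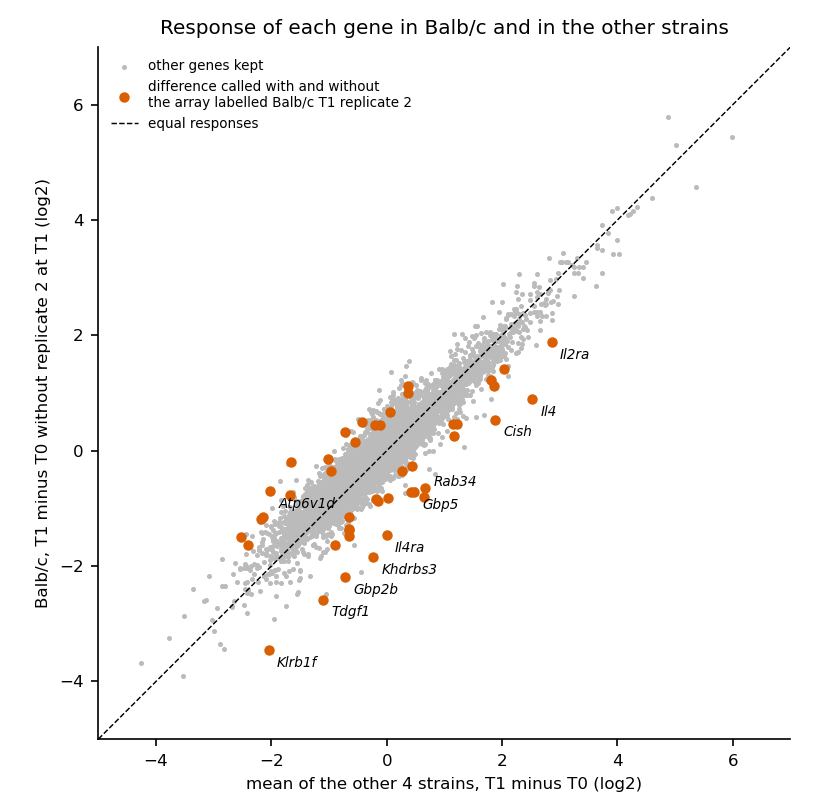
Change from T0 to T1 (log2) of each gene in Balb/c without the array labelled replicate 2 (vertical axis) against the mean change in the other 4 strains (horizontal axis); orange points are the 45 genes whose difference was called with and without that array, and the dashed line marks equal responses. Most genes lie along the line, and Gbp2b, Khdrbs3, Il4ra, Cish and Il4 lie below it.

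Khdrbs3 and Rab34 had a higher T0 level in Balb/c than in the other strains. Khdrbs3, an RNA-binding protein that guides splicing, read 5.47, 5.30 and 5.45 at T1, against 7.31, 7.30 and 7.30 at T0 (change -1.89). The other 4 strains averaged 5.12 at T1 and 5.35 at T0, so the difference was -1.66 (adjusted p = 6.8e-07), or -1.61 without the array labelled replicate 2. Rab34 read 7.72, 5.31 and 7.68 at T1, against 8.38, 8.63 and 8.02 at T0, while the other strains averaged 5.55 and 4.88. Rab34 thus fell in Balb/c (-1.44, or -0.64 without that array, and not called in a fit of the 6 Balb/c arrays alone, adjusted p = 0.0841 in limma), against 0.67 in the other strains, a difference of -2.11 (adjusted p = 0.00173), or -1.31 without that array. Tdgf1, a growth factor co-receptor, fell by 2.63 in Balb/c, against -0.65 in DBA/2J, -0.51 in 129X1/SvJ, -0.86 in C57BL/6J and -2.35 in A/J (difference -1.54). Its T0 levels overlapped between Balb/c (6.91 to 7.79) and A/J (6.33 to 7.42), and the difference was not called against A/J and C57BL/6J (-1.02, adjusted p = 0.206).

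Gbp2b differed by -2.78 (adjusted p = 0.0168), or -1.46 without the array labelled replicate 2 (adjusted p = 0.00368). Its call was lost without T0 replicate 1 (-2.77) or T0 replicate 2 (-2.76). Gbp2b changed by -3.51 in Balb/c, or -2.19 without the array labelled replicate 2. The changes were -1.75 in A/J, -0.72 in 129X1/SvJ, -0.20 in C57BL/6J and -0.25 in DBA/2J. A/J averaged 10.41 at T0 and 8.66 at T1, whereas C57BL/6J and DBA/2J arrays stayed at 4.73 to 5.59 at both times. Against A/J and C57BL/6J alone the difference was -2.53, or -1.21 without the array labelled replicate 2, and not called. Gbp5 changed by -0.75 in Balb/c, against 1.89 in DBA/2J, 1.29 in 129X1/SvJ, -1.36 in C57BL/6J and 0.06 in A/J (difference -1.22). Against A/J and C57BL/6J alone it differed by -0.10 (adjusted p = 0.962). Gbp4 changed by -0.55, against 1.61 in DBA/2J, 0.82 in 129X1/SvJ, -0.09 in C57BL/6J and 0.26 in A/J (difference -1.20). The largest negative differences also include Frmd6, a FERM domain protein (-1.10), and Acer2, a ceramidase (-1.02, or -0.83 without the array labelled replicate 2), neither called against A/J and C57BL/6J (-0.69 and -0.44). The difference of Gbp4 was lost without T1 replicate 4 (-1.04) or T0 replicate 2 (-1.12). Klrb1f changed by -3.69 in Balb/c, against -1.73 in DBA/2J, -0.73 in 129X1/SvJ, -3.12 in C57BL/6J and -2.62 in A/J (difference -1.65). Its call was lost without T0 replicate 4 (-1.59), without both arrays of number 2 (-1.43) and against A/J and C57BL/6J (-0.82, adjusted p = 0.597).

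A second set involves interleukin 4 and its signalling. Il4 rose by 1.13 in Balb/c, against changes of 4.90 in DBA/2J, 3.80 in 129X1/SvJ, 1.18 in C57BL/6J and 0.19 in A/J. At T0 the Balb/c arrays read 10.05 to 10.54, A/J 9.96 to 11.07 and C57BL/6J 9.31 to 9.97, whereas DBA/2J read 6.46 to 7.21 and 129X1/SvJ 6.44 to 7.31. The difference of Balb/c from the mean of the others was -1.39 (adjusted p = 0.0232), or -1.63 without the array labelled replicate 2. Set against A/J and C57BL/6J alone, a comparison added after the data were seen, it was 0.44, or 0.20 without that array, and not called. Its call was lost without T1 replicate 1 (-1.21), T1 replicate 4 (-1.32), T0 replicate 1 (-1.39, adjusted p = 0.085) or T0 replicate 4 (-1.26), and it was lost with strain and number as a block (-1.39, adjusted p = 0.0576).

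Cish, a feedback inhibitor induced through Stat5, rose by 0.38 in Balb/c, against 2.89 in DBA/2J, 2.88 in 129X1/SvJ, 0.99 in C57BL/6J and 0.74 in A/J (difference -1.49, adjusted p = 6.8e-07, or -1.34 without the array labelled replicate 2). Its T0 level was 8.81 to 8.86 in Balb/c and 6.56 to 6.94 in DBA/2J and 129X1/SvJ. The change of Cish in Balb/c itself was not called without T1 replicate 1 (0.23), T0 replicate 2 (0.38, adjusted p = 0.0541) or T0 replicate 4 (0.38, adjusted p = 0.0513). Il4ra fell by 1.52 in Balb/c, against 0.79 in 129X1/SvJ, 0.26 in DBA/2J, -0.56 in C57BL/6J and -0.51 in A/J (difference -1.52, adjusted p = 5.86e-05, or -1.46 without that array). Il2ra differed by -0.92 and Stat5a, the factor downstream of the interleukin 2 receptor, by -0.79, both named after their values were seen. The Il2ra call was lost without T1 replicate 4 (-0.87), T0 replicate 1 (-0.91), T0 replicate 2 (-0.94) or T0 replicate 4 (-0.92), and neither gene was called against A/J and C57BL/6J (-0.21 and -0.17). In Il4, Cish, Il4ra, Il2ra and Stat5a the mean T0 levels of Balb/c, A/J and C57BL/6J all exceeded those of DBA/2J and 129X1/SvJ, while the T1 levels were closer together.

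Most of the 12 largest positive differences were a smaller fall in Balb/c, although the Balb/c changes of Lgmn (-0.53) and Emp3 (-0.12) were themselves not called. Atp6v1d, a subunit of the proton pump of lysosomes, read 7.61, 8.01 and 7.68 at T1, against 8.48, 8.26 and 8.30 at T0 (change -0.58). The others averaged 7.75 at T1 and 9.76 at T0, a difference of 1.44 (adjusted p = 6.8e-07), or 1.32 without the array labelled replicate 2. Balb/c arrays at T0 lay under every T0 array of the other strains, the lowest of which was 9.32. Tmem229b differed by 1.01, Dipk1a by 0.94, Rcbtb2 by 0.91, Emp3 by 0.89, Sash3, a lymphocyte adaptor, by 0.83 and Plekha2 by 0.81. Against A/J and C57BL/6J none of these was called (0.56, 0.72, 0.30, 0.42, 0.45 and 0.46 in that order). Lgmn, a lysosomal protease, differed by 1.13, or by 1.48 without the array labelled replicate 2. It was not called against A/J and C57BL/6J either (0.78). The calls of Lgmn, Emp3, Sash3 and Plekha2 each depended on single Balb/c arrays. Lgmn gave 1.04 without T1 replicate 1, 0.88 without T1 replicate 4, 1.09 without T0 replicate 1 and 1.03 without T0 replicate 2. Emp3 gave 0.86 without T1 replicate 4 and 0.84 without T0 replicate 2, Plekha2 0.78 without T0 replicate 1 and 0.80 without T0 replicate 2, and Sash3 0.75 without T1 replicate 1, 0.73 without T1 replicate 4, 0.82 without T0 replicate 1 and 0.79 without T0 replicate 4.

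In Acss2 and Dnajc15 the change in Balb/c and the mean change of the others had opposite signs. Acss2, which makes acetyl-CoA from acetate, changed by 0.24 in Balb/c (adjusted p = 0.179), against -0.72 in the others (difference 0.96, adjusted p = 0.00269). Dnajc15, a mitochondrial co-chaperone, rose by 0.70, against -0.43 (difference 1.13, or 0.93 without the array labelled replicate 2), with A/J at 0.46. This difference was not called without both arrays of number 2 (0.97) or against A/J and C57BL/6J (0.90, adjusted p = 0.134). Wdr12, of ribosome biogenesis, rose by 0.81 in Balb/c, against a mean of 0.06 in the others (difference 0.75), a larger rise and not an opposite direction. Its call was lost without T0 replicate 1 (0.72) or T0 replicate 4 (0.69).

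Against A/J and C57BL/6J alone, 11 genes were called with and without the array labelled replicate 2, of which 8 were among the 45. They include Atp6v1d (1.17), Acss2 (1.02), Khdrbs3 (-1.37) and Rab34 (-1.89, or -1.09 without that array), but none of Cish, Il4, Gbp2b, Gbp4, Gbp5, Klrb1f, Tdgf1, Frmd6 and Acer2. Of the more positive differences, Tmem229b, Lgmn, Dipk1a, Rcbtb2, Emp3, Sash3, Plekha2, Dnajc15 and Wdr12 were not among these 11 genes either. Il4ra was called with that array (-0.99, adjusted p = 0.0371 in limma) and not without it (-0.93, adjusted p = 0.108).

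**Figure D5:**
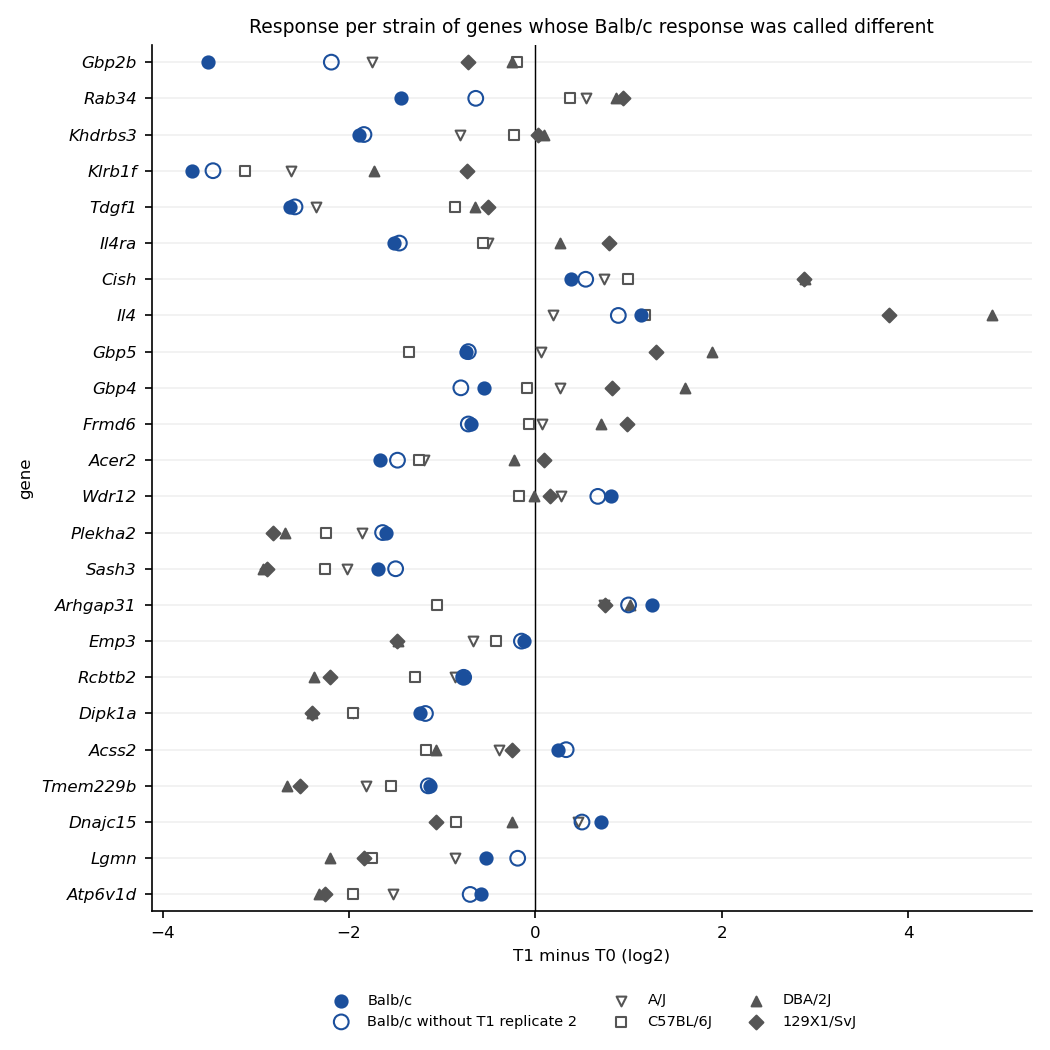
Change from T0 to T1 (log2, horizontal axis) in Balb/c with all arrays (filled circles) and without the array labelled replicate 2 (open circles), and in the other 4 strains (grey symbols), for the 12 largest negative and 12 largest positive differences. For Il4, Cish and Gbp5 the A/J and C57BL/6J symbols lie nearer to Balb/c than those of DBA/2J and 129X1/SvJ, and for Rab34 and Atp6v1d all 4 lie on one side of Balb/c.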

How the data were processed

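Total RNA of CD4 bead-enriched spleen cells was hybridised to Affymetrix arrays, per the labels. The values are log2 intensities as the authors deposited them, and the submitters' processing notes name RMA. No further upstream step is recorded there. Of 35556 probe sets, 21789 had 1 gene symbol in the platform annotation, 1621 several and 12146 none. Of the 21789 probe sets, 21698 had a gene ID that was found in the RefSeq table of GRCm38.p6. Each of 19938 genes was represented by its brightest probe set on average. The 11413 genes whose highest group mean reached 5.33, the median of all values, were kept.

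limma 3.58.1 in R 4.3.3 fitted 1 mean per strain and time over all 34 arrays, with Benjamini-Hochberg adjustment over all kept genes and a threshold of 0.05. Contrasts were Balb/c T1 minus T0, and that change minus the mean change of the other 4 strains. Deviations of same-numbered Balb/c T1 and T0 arrays from their group means correlated weakly, at 0.216, 0.184 and 0.343 (numbers 1, 2 and 4). Each Balb/c T1 array correlated best with the T0 array of its own number. In A/J numbers 1, 4 and 5 and in DBA/2J numbers 2 and 4 did not. The labels do not say whether same-numbered arrays share a mouse, and the main fit does not pair them. In A/J and DBA/2J 1 and 2 numbers stayed under 0.1.

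Members and gene lists were chosen with earlier results of these data known. The text names the 15 largest rises and falls without overlap, the 12 largest differences in each direction, up to 6 members of each list by moderated t, members that moved against their list, members not called, and a fixed set of helper cell genes. The number of arrays limits the precision.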

Additional observations from a re-analysis of the deposited data

Results flagged for a closer look

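In 24 genes the change from T0 to T1 in Balb/c differed from the mean change of the other 4 strains by limma's interaction contrast (adjusted p under 0.05 whether or not the array carrying the label Balb/c T1 replicate 2 was included). They are the 12 largest such differences in each direction. The more negative ones were Gbp2b (-2.78), Rab34 (-2.11), Khdrbs3 (-1.66), Klrb1f (-1.65), Tdgf1 (-1.54), Il4ra (-1.52), Cish (-1.49), Il4 (-1.39), Gbp5 (-1.22), Gbp4 (-1.20), Frmd6 (-1.10) and Acer2 (-1.02). The more positive ones were Atp6v1d (1.44), Lgmn (1.13), Dnajc15 (1.13), Tmem229b (1.01), Acss2 (0.96), Dipk1a (0.94), Rcbtb2 (0.91), Emp3 (0.89), Arhgap31 (0.89), Sash3 (0.83), Plekha2 (0.81) and Wdr12 (0.75). Gbp2b (-1.46) and Rab34 (-1.31) were much smaller without that array. Arhgap31 went up in Balb/c, A/J, DBA/2J and 129X1/SvJ, and down in C57BL/6J (-1.06).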

How the results depend on the processing

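The count of genes called between T1 and T0 in Balb/c was 6238, and leaving out each Balb/c array gave 5536 to 6108. It was 4958 without both arrays of number 2, 5039 from the 6 Balb/c arrays alone, 6409 with no filter, 6358 after quantile normalization and 6761 with array weights. With strain and number as a replicate block, 6722 genes were called, 2617 higher and 4105 lower. The block ended the call of Gimap5 (0.34) and of the difference of Il4 (-1.39) and made a call of Lgmn (-0.53), and it changed no other call of a named gene. Without the array labelled T1 replicate 2 and without the block, the change of Lgmn was -0.19. The difference from the other 4 strains was less steady. Its 60 calls became 35 to 129 when Balb/c arrays were left out in turn, 98 after quantile normalization, 300 with array weights, 87 with the replicate block, and 22 against A/J and C57BL/6J only, or 19 without the array labelled T1 replicate 2. The sign of the Il4 difference turned against those strains (0.44, and 0.20 without that array). Signs otherwise turned only in genes not called. When Balb/c arrays were left out in turn, Mid1 ranged from -0.06 to 0.32, Foxo1 from -0.12 to 0.12, Rela from -0.08 to 0.04, Mki67 from -0.40 to 0.83, and Hk1 from -0.05 to 0.16. Hk1 also gave -0.12 after quantile normalization and without both arrays of number 2, and -0.05 with array weights. Irf1 ranged from -0.36 to 0.08, with 0.08 without both arrays of number 2 and 0.03 with array weights. The cause was not tested. Arrays give no read depth, and genes near 5.33 are limited by signal over background.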
